A study of Mus musculus with 24 samples.

Results

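RNA from prostate organoids labelled Brca1-/- (KO) was compared with RNA from wild-type (WT) organoids, both cultured with dihydrotestosterone (DHT). The comparison takes the 3 KO and the 3 WT libraries with DHT, 6 of the 24 libraries analysed, by their titles and genotype labels. Reads were summed per gene, and all 15427 genes with enough reads in the organoid libraries were tested. The other libraries are organoids of the same labels without DHT, organoids labelled Brca1+/- (HET) in both media, and anterior prostate lobe tissue of the 3 genotype labels. The organoids were started from cells of the anterior lobe of 3-month-old mice, freed with collagenase and embedded in Matrigel. All organoid groups shared a medium with EGF, R-Spondin, Noggin, B27, the TGF-beta receptor inhibitor A83-01 and the ROCK inhibitor Y27632, so every genotype grew under Wnt, EGF and inhibitor treatment. Which part of Brca1 was deleted, what drove the deletion, the strain of the mice and the number of animals behind each group are not given in the sources used here. Replicates are described as biological in the series record, with no word on whether each is its own mouse or culture. The p-values therefore rest on the spread among these libraries, which may be technical.

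BRCA1 works with BARD1 as a ubiquitin ligase and, in complexes with other proteins, in the repair of DNA double-strand breaks by homologous recombination, in the protection of replication forks and in cell cycle checkpoints. Its loss is known from inherited breast and ovarian cancer, and BRCA1 carriers are also found among patients with prostate cancer. Prostate organoids hold luminal and basal epithelial cells, and DHT, the potent form of testosterone, is the androgen they are cultured with. The comparison asks how organoids of the 2 genotype labels differ when androgen is supplied.

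Levels are given as CPM, a read count relative to the scaled size of its library, and each list of 3 values gives libraries 1, 2 and 3 of a group. Changes are log2 changes, KO minus WT, with the standard error (SE) and the Benjamini-Hochberg adjusted p of edgeR's quasi-likelihood test over all genes tested. A gene was called when this p was below 0.05. The 6 libraries held between 11965815 and 47622489 reads. WT library 1 was the shallowest and stood apart: Lars2, a mitochondrial leucyl-tRNA synthetase, took 28.03% of its reads and between 0.1755% and 0.4577% of the reads of the other 5. The mitochondrially encoded genes took 4.736%, 4.067% and 3.012% of reads in KO and 2.69%, 2.151% and 2.55% in WT. The reads on Lars2 lower this share in WT library 1. On the CPM scale the groups overlapped for mt-Co1, a mitochondrially encoded gene, at 16500 in KO library 3 and 18900 in WT library 1. The luminal markers summed to between 8000 and 8070 CPM in KO and between 8140 and 8420 CPM in WT, and the basal markers to between 4780 and 5090 CPM in KO and between 4550 and 5560 CPM in WT, with no member at 0. Both groups thus carried the markers of the labelled epithelium.

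Brca1 itself, the gene named in the label, was still read in the KO libraries. Brca1 (chr11:101488764-101551955, minus strand, GRCm38) stood at 11.8, 9.64 and 11.2 CPM in the libraries labelled KO and at 13.6, 13.2 and 14.3 CPM in WT. The KO values were all lower and the groups did not overlap, but the difference did not pass the test (log2 change -0.34, SE 0.129, adjusted p 0.22). Of the 7 annotated Brca1 transcripts, the 6572-base transcript Brca1-201 held between 98.4% and 99.7% of the Brca1 reads in KO and between 95.8% and 99.2% in WT. The transcript level of Brca1-201 was 2.6, 2.02 and 2.43 TPM (transcript levels scaled for length and depth) in KO and 2.52, 2.78 and 2.97 in WT. Values per transcript do not show which exons the reads came from, so they neither check nor contradict a deletion within the transcript, and the group is called KO by its label throughout. The 11 tested members of the complexes built on BRCA1 held no called gene. Their median log2 change was 0.07, beside -0.007 over all genes tested. The 2 with the highest levels were Uimc1, the ubiquitin-binding RAP80, at 67.2, 69.5 and 62.2 CPM in KO and 53.1, 78.9 and 64.1 CPM in WT, and Rbbp8, the end-resection factor CtIP, at 138, 132 and 122 CPM in KO and 120, 104 and 113 CPM in WT. The main Uimc1 transcript is near-identical to Rpl29, a ribosomal protein gene, and its copies, so the Uimc1 level is uncertain.

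In all, 634 of the 15427 genes were called, 4.11% of those tested. Of these, 390 were higher in KO (2.53%) and 244 were lower (1.58%). The called rises had a median log2 change of 1.19 and 237 of them exceeded 2-fold, while the called falls had a median of -0.85 and 96 exceeded 2-fold. At an unadjusted p below 0.05 there were 2034 genes (13.2%). Libraries of the 2 groups did not overlap for 3745 genes (24.3%), and 430 genes (2.79%) were called, without overlap and at 5 CPM or more on average in a group. The count of called genes was 394 without WT library 3, 406 without KO library 3, 408 without KO library 2 and 562 without WT library 1, and 488 genes were called with the same direction both with and without WT library 1. The plot of change against level shows a wide spread of small changes and a few genes far from the rest.

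**Figure D1:**
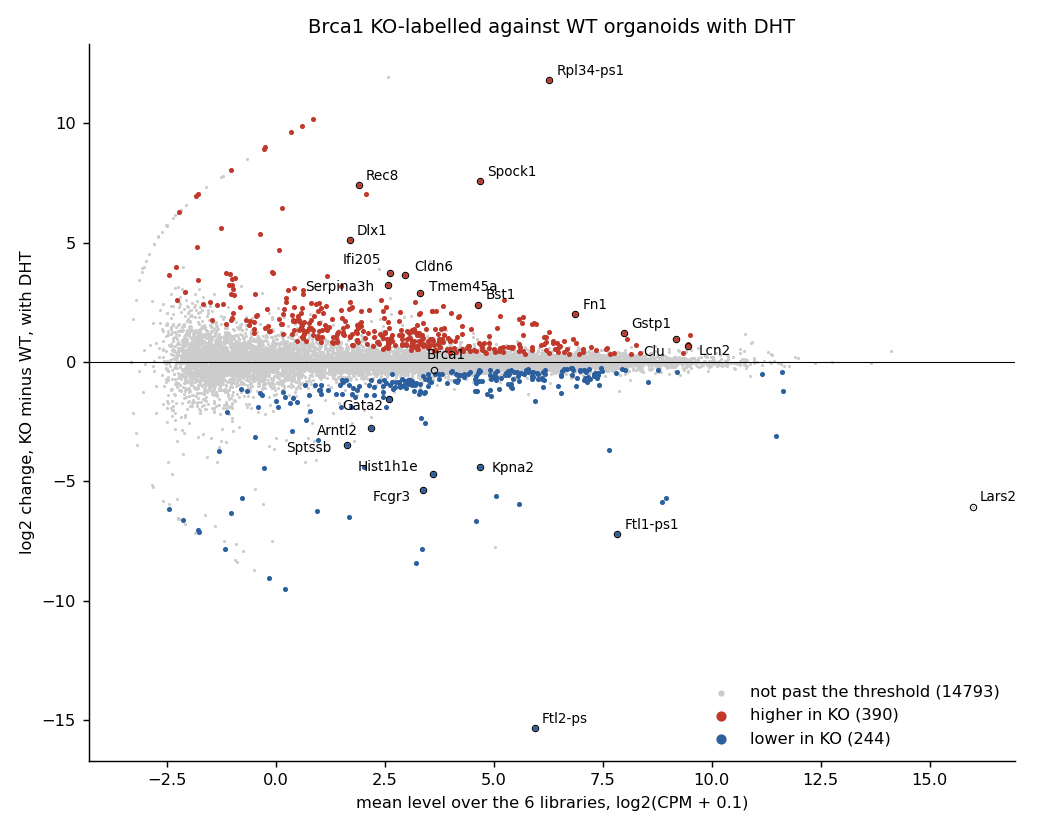
Each point is 1 of the 15427 genes, with its mean level over the 6 libraries as log2(CPM + 0.1) on the x axis and its log2 change, KO minus WT with DHT, on the y axis; red and blue points are the 390 higher and 244 lower called genes and grey points the rest. Spock1, Rec8 and Dlx1 lie far above 0, Fcgr3 and the ferritin copies far below it, and Brca1 close to it.

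The largest rises are given among called genes that averaged 5 CPM or more in a group, did not overlap and carry no clone name. The first 3 without a near-identical copy were close to absent from WT. Spock1, which encodes the secreted proteoglycan testican-1 (chr13:57421195-57908332, minus strand), stood at 47.3, 53.6 and 51.8 CPM in KO and at 0.225, 0.256 and 0.277 CPM in WT. Each KO library was thus far above each WT library (log2 change 7.59, SE 0.288, adjusted p 2.12e-10). Rec8, a cohesin subunit of meiotic chromosomes (chr14:55618037-55625395, plus strand), stood at 7.09, 6.73 and 8 CPM in KO and at 0, 0.0466 and 0.0426 CPM in WT (log2 change 7.4, SE 0.441, adjusted p 3.31e-08). Dlx1, a homeobox transcription factor (chr2:71528113-71533981, plus strand), stood at 5.94, 6.69 and 5.72 CPM in KO and at 0.225, 0.186 and 0.149 CPM in WT (log2 change 5.11, SE 0.312, adjusted p 4.12e-08). The absence of overlap in these 3 genes follows from the rule by which they were chosen. Dlx2, the neighbour of Dlx1 and named after its values were seen, stood at 4.28, 4.07 and 3.48 CPM in KO and at 0.675, 0.373 and 0.149 CPM in WT (log2 change 3.6, SE 0.35, adjusted p 1.03e-05).

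Further large rises included genes of membrane and secreted proteins. Cldn6, a tight junction claudin, stood at 12.7, 13.4 and 17 CPM in KO and at 0.675, 1.3 and 1.19 CPM in WT (log2 change 3.65, SE 0.311, adjusted p 3.12e-06). Bst1, an ectoenzyme that makes cyclic ADP-ribose, stood at 39.2, 41 and 45.3 CPM in KO and at 8.55, 7.87 and 7.4 CPM in WT (log2 change 2.41, SE 0.0986, adjusted p 2.85e-10). Both genes were chosen for having no overlap, so their separation follows from the rule. The other 6 of the 12 largest rises within these limits were Ifi205 (3.74), the serpin Serpina3h (3.21), the transmembrane protein Tmem45a (2.88), the neurite growth factor Nrn1 (2.58), the zinc finger factor Osr2 (2.52) and Kctd12b (2.51), each with its log2 change in brackets. Their adjusted p ran from 2.87e-09 for Serpina3h to 0.000138 for Kctd12b.

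Of these rises, those of Spock1, Rec8, Cldn6 and Bst1 were also present in the HET organoids with DHT. The HET organoids were set against the same 3 WT libraries. Spock1 stood at 34.8, 40.4 and 44.3 CPM in HET, Rec8 at 8.03, 10.9 and 7.07 CPM, Cldn6 at 14.6, 14.8 and 16.6 CPM and Bst1 at 34.4, 33 and 32.6 CPM. The HET values lay on the side of the KO values for these 4 genes. KO and HET libraries, compared directly, did not differ past the threshold for Spock1 (log2 change 0.35, adjusted p 0.413), Rec8 (-0.25, adjusted p 0.75), Cldn6 (-0.1, adjusted p 0.926) or Bst1 (0.33, adjusted p 0.0626), and Serpina3h was higher in KO than in HET (0.54, adjusted p 0.0358).

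Within the same limits, the largest falls of genes without a near-identical copy or a clone name began with Fcgr3, a low-affinity receptor for IgG (chr1:171051174-171064935, minus strand). It stood at 0.587, 0.452 and 0.404 CPM in KO and at 16.7, 21 and 22.5 CPM in WT (log2 change -5.38, SE 0.216, adjusted p 2.54e-10). HET libraries stood at 12.4, 13.6 and 11.4 CPM, between the 2 groups and nearer to WT, and KO was below HET (log2 change -4.69, adjusted p 1.78e-09). Of the 8 leukocyte markers, 3 were at 0 in every KO library (Adgre1, Cd3e and Lyz2) and 2 in every WT library (Adgre1 and Lyz2). In each group 7 of the 8 stayed under 1 CPM in all libraries. The markers summed to between 44.8 and 50.2 CPM in KO and between 49.6 and 61.6 CPM in WT. Almost all of this was Cd68, which stood at 49.7, 44.3 and 47.9 CPM in KO and was not called between KO and WT. Sptssb, a subunit of the enzyme that starts sphingolipid synthesis, stood at 0.326, 0.762 and 0.445 CPM in KO and at 2.7, 6.52 and 7.4 CPM in WT (log2 change -3.47, SE 0.471, adjusted p 0.000253). Arntl2, a paralogue of the clock factor BMAL1, stood at 1.22, 0.857 and 1.31 CPM in KO and at 9, 7.18 and 7.26 CPM in WT (log2 change -2.77, SE 0.24, adjusted p 3.6e-06). KO was below WT in every library for Fcgr3, Sptssb and Arntl2, which follows from these limits. The dihydrodiol dehydrogenase Dhdh (log2 change -2.36, SE 0.302, adjusted p 0.000138) and the chitinase Chit1 (-1.89, SE 0.204, adjusted p 3.01e-05) were also among the 12 largest falls within these limits. A gene with a clone name, 5430419D17Rik, outside the naming rule and named after its values were seen, fell as well: it stood at 26.9, 29.9 and 28.8 CPM in KO, 347, 376 and 397 CPM in WT and 89.9, 128 and 79.4 CPM in HET (log2 change -3.71, SE 0.218, adjusted p 2.88e-08).

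**Figure D2:**
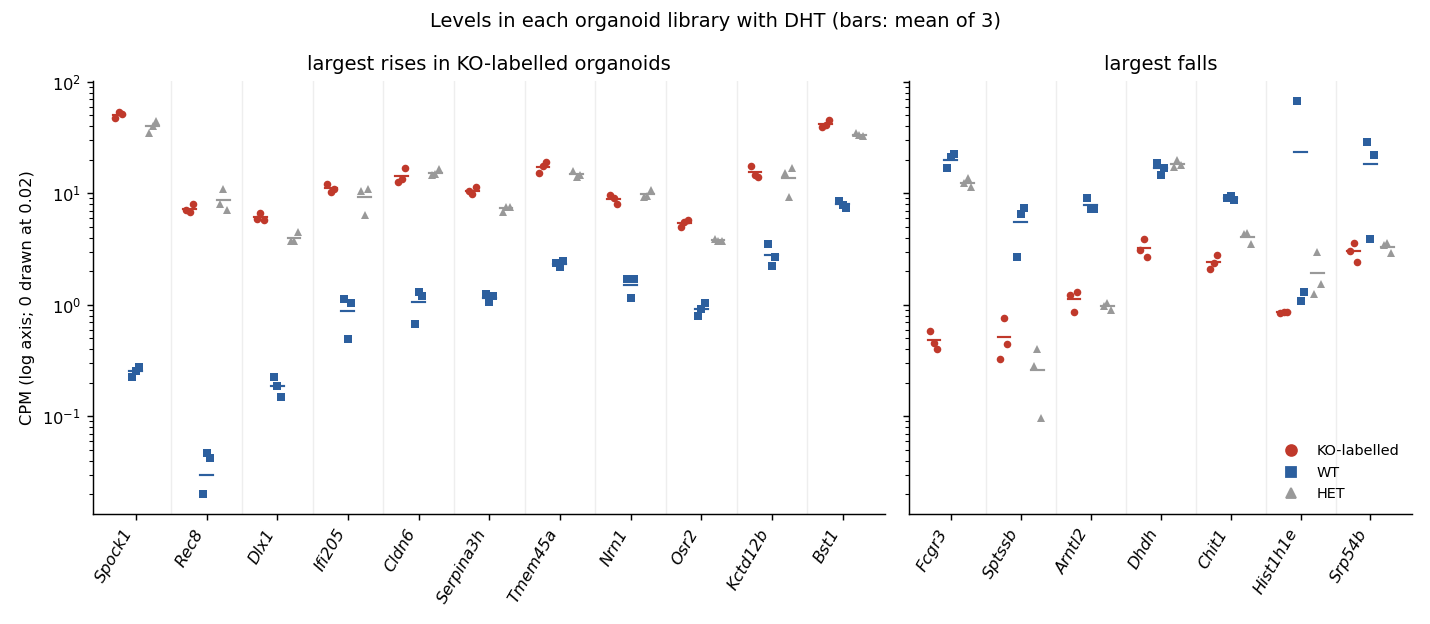
CPM on a log axis in each library with DHT (KO red circles, WT blue squares, HET grey triangles, bars at the mean of 3) for the largest rises and falls for which the search found no near-identical copy. Srp54b, described in the text as a copy, is among them. A value of 0 is drawn at 0.02. The KO and HET points lie together for most rises, Fcgr3 and Dhdh are low in KO and not in HET, and the mean of Hist1h1e in WT rests on 1 library.

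Some falls rested on WT library 1. Hist1h1e, a linker histone gene, stood at 67.7 CPM in that library, at 1.09 and 1.3 CPM in the other WT libraries and at 0.848, 0.857 and 0.869 CPM in KO, and its log2 change of -4.71 (adjusted p 0.0381) became -0.47 (adjusted p 0.735) without WT library 1. In all, 6 called genes that averaged 5 CPM or more in a group stood in WT library 1 at over 5 times their level in each other library. They were Hist1h1e and, named after their values were seen, Tmem38b, Creb5, Ccnb1ip1, Gm12896 and Gm20594. None of the 6 was called without that library; Creb5, for example, went from a log2 change of -5.69 to -0.13. Srp54b, a copy of a signal recognition particle subunit, stood at 28.9, 3.89 and 22.1 CPM in WT and at 3.04, 3.59 and 2.44 CPM in KO, so that 1 WT library was near the KO level (log2 change -2.58, SE 0.547, adjusted p 0.011), and its call was lost without KO library 1 or KO library 3 (adjusted p up to 0.0655).

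Many of the most extreme values belonged to genes with near-identical copies, among which the deposited read estimates are divided. Of the 634 called genes, 56 had at least 1 copy whose main transcript matched at 95% identity or more. The share of all tested genes with such a copy was not counted, so this is not an excess among called genes. Genes annotated as pseudogenes made up 6.782% of the called genes and 8.252% of those tested. Ftl2-ps, a copy of the ferritin light chain gene (chr4:125504288-125504839), had 0 reads in all 3 KO libraries and stood at 92.2, 146 and 131 CPM in WT, which is at least 1723-fold lower in KO against a floor of 3 reads per library. The copies Ftl1-ps1 (2.67, 2.47 and 3.96 CPM in KO, 344, 542 and 479 CPM in WT) and Ftl1-ps2 (0.0652, 0.0714 and 0.121 CPM in KO, 14.1, 25.1 and 21.4 CPM in WT) were near 0 in KO as well. The ferritin gene Ftl1 went the other way, at 854, 1040 and 1090 CPM in KO and 334, 536 and 474 CPM in WT (log2 change 1.15, adjusted p 0.0363), a call that was lost in each of the 6 fits with 1 library left out (adjusted p up to 0.148). Summed over the 6 near-identical genes, the family stood at 858, 1040 and 1100 CPM in KO and 783, 1250 and 1110 CPM in WT, which did not pass the test (log2 change -0.07, SE 0.295, adjusted p 0.974).

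The same held for other families. Rpl34-ps1, a copy of a ribosomal protein gene, stood at 134, 169 and 162 CPM in KO and at 0, 0.0466 and 0.0426 CPM in WT, the largest fitted rise of the named genes (log2 change 11.81). The sum of its 6 near-identical genes had a log2 change of 0.04 (SE 0.207, adjusted p 0.978). Kpna2, an importin of nuclear transport that rises in dividing cells, stood at 3, 2.38 and 1.7 CPM in KO and at 48.1, 51.5 and 48.3 CPM in WT (log2 change -4.39). Its copy Gm10184 stood at 99.1, 90.5 and 95.2 CPM in KO and at 64.6, 46.6 and 47.8 CPM in WT, and the sum over the 5 near-identical genes had a log2 change of 0.09 (SE 0.0782, adjusted p 0.779). For these 3 families the single genes described so far passed the test and the sums did not. The parent gene Rpl34, named after its values were seen, was lower in KO and not called. It stood at 171, 222 and 231 CPM in KO and at 260, 416 and 381 CPM in WT. The glutathione transferase family behaved differently: Gstp1 stood at 317, 358 and 389 CPM in KO and at 109, 183 and 172 CPM in WT, its copy Gstp-ps fell from 5.29, 6.8 and 6.47 CPM in WT to at most 0.119 CPM in KO, and the sum of the 3 genes rose (log2 change 1.19, SE 0.215, adjusted p 0.00343). In tissue, the copies did not follow the genotype label: Ftl1-ps1 stood at 579 and 5.69 CPM in the 2 KO tissue libraries and at 353 and 1.79 CPM in the 2 WT ones, and Rpl34-ps1 at 0.0468 and 111 CPM in KO tissue and at 138 and 259 CPM in WT tissue.

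**Figure D3:**
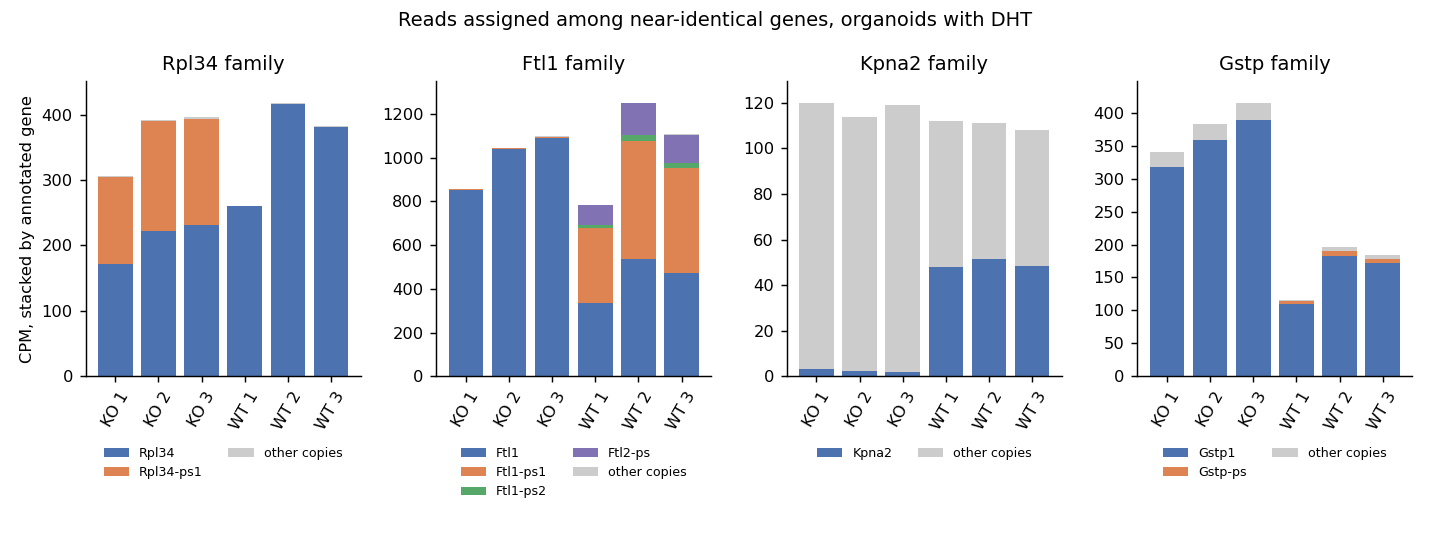
Stacked CPM of near-identical genes in the 3 KO and 3 WT libraries with DHT, 1 panel per family, with grey for copies not named. The totals of the Rpl34, Ftl1 and Kpna2 families are alike in KO and WT while the split among copies differs, and the Gstp total is higher in KO.

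Genes of DNA repair and division moved little in KO. Of 36 genes of homologous recombination and the Fanconi pathway, which repairs DNA crosslinks, 1 rose and none fell (2.78%, beside 4.11% of all genes called). Their median log2 change was 0.08. The called gene was Chek2, the checkpoint kinase CHK2 that acts downstream of ATM. It stood at 35.8, 35 and 32.7 CPM in KO and at 19.2, 19.9 and 20.4 CPM in WT, without overlap (log2 change 0.79, SE 0.107, adjusted p 0.000239), and HET lay between at 30.8, 26 and 27.6 CPM. Of 18 tested genes of end joining, the other route of break repair, none was called (median -0.06), with Lig3 at -0.15 (adjusted p 0.415) and Trp53bp1, the 53BP1 gene, at -0.04 (adjusted p 0.947). Of 24 p53 targets, 1 rose: Fas, a death receptor, at 8.81, 10.6 and 10 CPM in KO and 5.63, 6.34 and 5.64 CPM in WT (log2 change 0.74, SE 0.164, adjusted p 0.015). Although 22 of the 24 targets lay above 0, with a median of 0.2, the called share of 4.17% was close to the 4.11% over all genes. Fas lost its call without KO library 2, KO library 3 or WT library 3 (adjusted p up to 0.0952).

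Of 35 mitosis genes, none rose and 1 fell (2.86%, beside 4.11% of all genes called), the copy-prone Kpna2, with a median of 0.1. Of 30 genes of DNA replication, none was called, with a median of -0.04, and Rrm1, a subunit of ribonucleotide reductase, stood at 126, 122 and 118 CPM in KO and 116, 121 and 114 CPM in WT. These values were close to each other in every library. HET organoids with DHT, set against the same WT libraries, had 27 of the 35 mitosis genes called higher, with a median of 0.7, where 1158 of all genes were called (7.51%), 622 higher (4.03%) and 536 lower (3.47%). Compared directly, 17 mitosis genes were lower in KO than in HET and none was higher, with a median of -0.58, where 3.54% of all genes were called. Aurka, a mitotic kinase named after its values were seen, stood at 23.2, 22.6 and 22.8 CPM in KO, 19.7, 24.2 and 22.8 CPM in WT and 37.7, 38.1 and 37.7 CPM in HET (KO minus HET log2 change -0.73, adjusted p 8.54e-05). Among the 9 inhibitors of cell cycle entry none was called between KO and WT. Cdkn1b was at 0.39 (adjusted p 0.624) and Cdkn2b at -0.23 (adjusted p 0.413).

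Of 5 tested steroid receptor genes, 1 was called (20%, beside 4.11% of all genes called). The oestrogen receptor genes Esr1 (0.32, adjusted p 0.125) and Esr2 (0.22, adjusted p 0.955) and the glucocorticoid receptor gene Nr3c1 (0.31, adjusted p 0.418) were not called. Nr3c2, the mineralocorticoid receptor, rose, at 5.17, 4.38 and 4.36 CPM in KO and 2.7, 2.47 and 2.21 CPM in WT (log2 change 0.93, SE 0.189, adjusted p 0.00791, and 0.0638 without WT library 3). Of 71 tested androgen response genes, none rose and 2 fell, 2.82% beside the 4.11% of all genes, with a median of -0.02. These were Slc26a2, a sulphate transporter (-0.48, adjusted p 0.0128), and Fads1, a fatty acid desaturase (-0.35, adjusted p 0.0205). Without KO library 1, 2 or 3 or WT library 3 none of the 71 was called lower, and without WT library 1 there were 3. Of 6 tested prostate secretory genes, 1 was called (16.7%, beside 4.11% of all genes), and it rose. Acpp, prostatic acid phosphatase, stood at 176, 199 and 172 CPM in KO and at 111, 130 and 118 CPM in WT (log2 change 0.61, SE 0.119, adjusted p 0.00563). All 3 KO libraries lay above all WT and HET libraries, the latter at 109, 135 and 123 CPM, and KO was above HET as well (log2 change 0.58, adjusted p 0.0118).

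Epithelial identity genes showed few called changes. None of 14 luminal genes was called (median -0.09), with the keratin Krt19 at -0.26 (adjusted p 0.561) and the adhesion protein Epcam at -0.28 (adjusted p 0.383). None of 18 basal genes was called either (median -0.05), with Krt5 at -0.15 (adjusted p 0.888) and Krt15 at 0.21 (adjusted p 0.737). Of 15 genes of proximal, progenitor-like luminal cells, 2 rose (13.3%, beside 2.53% of all genes called higher), although the median was -0.2. Clu, the secreted chaperone clusterin, stood at 759, 731 and 807 CPM in KO and at 388, 390 and 417 CPM in WT (log2 change 0.94, SE 0.123, adjusted p 0.000161). Lcn2, an iron-scavenging antibacterial protein, stood at 846, 861 and 887 CPM in KO and at 543, 540 and 545 CPM in WT (log2 change 0.67, SE 0.133, adjusted p 0.00633). Both rose without overlap, and HET libraries stood near KO, at 772, 746 and 881 CPM for Clu and 773, 820 and 738 CPM for Lcn2. Gata2, a zinc finger transcription factor, was the called gene among 22 epithelial transcription factors (4.55%, close to the 4.11% of all genes called). It stood at 3, 3.02 and 3.21 CPM in KO, 8.67, 9.3 and 8.85 CPM in WT and 5.22, 6.15 and 5.98 CPM in HET. It fell from WT to KO (log2 change -1.54, SE 0.154, adjusted p 1.35e-05) and was lower in KO than in HET (-0.91, adjusted p 0.00291).

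Some genes of stratified, keratinising epithelium fell. Of 21 tested squamous differentiation genes, 4 fell and none rose, 19% of the list beside 1.58% of all genes called lower. Of the 21, 15 lay below 0 and 6 above, the median was -0.6, and 2 were called lower without WT library 2 or without WT library 3. Dmkn, a secreted protein of the epidermis, stood at 16.4, 16.9 and 16 CPM in KO and at 32.4, 44.4 and 46.7 CPM in WT (log2 change -1.33, SE 0.128, adjusted p 9.48e-06). The stress keratin gene Krt16 stood at 4.85, 5.81 and 5.44 CPM in KO and at 8.55, 10.3 and 11.3 CPM in WT (log2 change -0.92, SE 0.146, adjusted p 0.0011). Both were lower in every KO library, and both kept their call in all 6 fits that left out 1 library. Krt13, a keratin of inner linings (-0.7, adjusted p 0.011), lost its call without WT library 2 or WT library 3 (adjusted p up to 0.0734), and Krtdap (-1.9, adjusted p 0.0234) kept it in 1 of the 6, without KO library 2. The desmosomal cadherin Dsg3, which holds such cells together, fell (103, 97 and 99 CPM in KO, 161, 169 and 175 CPM in WT, log2 change -0.75, SE 0.116, adjusted p 0.000829). It was the called gene of 13 desmosome genes (7.69%, beside 4.11% of all genes called). Upk1b, a plaque protein of the urothelium, fell too (13.9, 15.8 and 14.5 CPM in KO, 28.1, 37.2 and 37.1 CPM in WT, log2 change -1.22, SE 0.148, adjusted p 8.65e-05). The 5 urothelial markers summed to between 18.7 and 21.4 CPM in KO and between 30.6 and 41.7 CPM in WT, most of it Upk1b. The others did not pass the test: Upk1a was at 0.76 (adjusted p 0.0988), Upk3a at 0.22 (adjusted p 0.93) and Upk2 at -0.76 (adjusted p 0.849), and Upk3b was at 0 in both groups. In these bulk samples fewer cells of a type and less RNA per cell cannot be told apart.

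Among matrix and cytoskeletal genes that mark a mesenchymal state, fibronectin and contractile genes rose. Of 12 tested genes on this list, 4 rose and 2 fell (50%, beside 4.11% of all genes called), with a median log2 change of 0.31. Like the other lists, it was chosen with earlier results of these data known, so this share is a description only. Fn1, the matrix protein fibronectin (chr1:71585520-71653200, minus strand), stood at 174, 187 and 204 CPM in KO, 38.8, 46.8 and 54.1 CPM in WT and 87.9, 95.6 and 118 CPM in HET. The 3 groups did not overlap, with KO highest (KO minus WT log2 change 2.01, SE 0.152, adjusted p 6.71e-07, and KO minus HET 0.91, adjusted p 0.00221). The contractile genes Tagln, at 1.48, 1.74 and 2.49 CPM in KO and 0.113, 0.256 and 0.404 CPM in WT, and Acta2, at 2.24, 3.31 and 4.06 CPM in KO and 0.45, 0.629 and 0.596 CPM in WT, rose from low levels (log2 changes 2.68 and 2.46, adjusted p 0.000635 and 0.00148). Thbs2, a matricellular protein, fell (4.8, 4.85 and 4.34 CPM in KO, 10.4, 9.6 and 9 CPM in WT, log2 change -1.04, SE 0.15, adjusted p 0.000456). The other called members, named after their values were seen, were the filament protein gene Vim, which rose (13.2, 16.1 and 17.2 CPM in KO, 5.51, 9.04 and 8.68 CPM in WT, 4.1, 3.56 and 3.52 CPM in HET, KO minus WT log2 change 0.97, adjusted p 0.00437), and the matrix protein gene Smoc2, which fell (-0.77, adjusted p 0.0102) and lost its call in the fits without KO library 1, KO library 3 or WT library 3. Tagln and Acta2 are also 2 of the 6 smooth muscle markers, which summed to between 3.85 and 6.95 CPM in KO and between 0.788 and 1.23 CPM in WT. Desmin, another marker of that cell type, was at 0 in all 6 libraries. The 9 fibroblast markers summed to between 42.1 and 51.1 CPM in KO and between 33.8 and 42.8 CPM in WT, with Dcn at 32.6, 37.9 and 27.5 CPM in KO and 27.1, 21.3 and 23.4 CPM in WT (log2 change 0.45, adjusted p 0.277), and the part of such cells in these rises was not tested.

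Among 21 tested matrix proteases and their inhibitors, 2 inhibitors rose and 1 protease fell (14.3%, beside 4.11% of all genes called). Timp3, an inhibitor that binds to the matrix, stood at 30.2, 25.6 and 30.5 CPM in KO, 6.98, 6.99 and 8.94 CPM in WT and 11.8, 14.5 and 21.9 CPM in HET (KO minus WT log2 change 1.9, SE 0.215, adjusted p 4.41e-05, and KO minus HET 0.84, adjusted p 0.0317). Timp2 rose by less (log2 change 0.38, adjusted p 0.011, and 0.0707 without KO library 3), and the protease Adamts1 fell (-0.37, adjusted p 0.0044). Of 22 tested collagen and basement membrane genes, 3 rose and none fell (13.6%), with a median of 0. Nid1, which links laminin to collagen IV, stood at 10.1, 10.5 and 10.7 CPM in KO and at 3.83, 4.31 and 3.98 CPM in WT (log2 change 1.36, SE 0.131, adjusted p 9.48e-06). The laminin chains Lama4 (0.73, adjusted p 0.0193) and Lamb1 (0.38, adjusted p 0.026) were called with all libraries, Lamb1 in none and Lama4 in 2 of the 6 fits with 1 library left out, those without KO library 2 or WT library 1.

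Single genes of the TGF-beta, Wnt, Notch and EGF pathways were called, to be read beside the 2.53% of all genes called higher and 1.58% called lower. Of 20 tested TGF-beta and BMP genes, 3 rose (15%): Ltbp1, which stores latent TGF-beta in the matrix (192, 188 and 193 CPM in KO, 138, 134 and 128 CPM in WT, log2 change 0.52, SE 0.0681, adjusted p 0.000187), the activin inhibitor Fst (0.96, adjusted p 0.00804) and the ligand Tgfb2. Tgfb2 stood at 14, 10.9 and 14 CPM in KO, 7.2, 4.22 and 5.66 CPM in WT and 5.27, 5.03 and 8.39 CPM in HET (KO minus WT log2 change 1.22, SE 0.262, adjusted p 0.0119, and KO minus HET 1.06, adjusted p 0.03). It was called without KO library 2 or WT library 1 and not called without any of the other 4 (adjusted p up to 0.0799). Of 14 tested Wnt targets, 3 fell and none rose (21.4%), with a median of -0.29. Ephb2, a receptor tyrosine kinase, stood at 15.1, 13.8 and 14.4 CPM in KO and at 34.1, 34.3 and 31.5 CPM in WT (log2 change -1.2, SE 0.156, adjusted p 0.000156). Axin2, the feedback inhibitor of the pathway, stood at 25.7, 20 and 23.2 CPM in KO and at 43.1, 34.7 and 37.1 CPM in WT (log2 change -0.73, SE 0.129, adjusted p 0.00259), and Apcdd1 fell by 0.52 on the log2 scale (adjusted p 0.00688). These 3 falls kept their call in all 6 fits with 1 library left out, and R-Spondin, which strengthens Wnt signalling, was in the medium of both groups. Of 13 tested Notch genes, 1 was called (7.69%): the target Hey1 rose (0.84, SE 0.172, adjusted p 0.00804, and up to 0.0598 without KO library 2 or WT library 3). Of 13 tested genes of the EGF family, 1 was called (7.69%): the receptor gene Erbb3 fell (-0.38, adjusted p 0.0432) and was called without WT library 1 and in no other of the 6 fits. Of 18 tested genes of MAPK output, 2 were called (11.1%). The ERK feedback inhibitor Spry4 rose (0.74, SE 0.128, adjusted p 0.00218), and Etv5, an ERK target, fell (-0.47, adjusted p 0.0345) and was called in 2 of the 6 fits, without KO library 3 or WT library 3.

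A stretch of the Hoxd cluster rose while its neighbours did not pass the test. Of 27 tested Hox genes, which set position along the body and the urogenital tract, 3 rose (11.1%, beside 4.11% of all genes called). All 3 lie in this cluster on chromosome 2, and the median of the list was -0.02. Hoxd12 stood at 2.74, 2.31 and 2.63 CPM in KO and at 0.225, 0.21 and 0.532 CPM in WT (log2 change 2.87, SE 0.36, adjusted p 0.000116). Hoxd11 (20.3, 22 and 19.1 CPM in KO, 9, 10.8 and 10.6 CPM in WT, log2 change 1, adjusted p 0.0044) and Hoxd10 (8.24, 8.57 and 7.07 CPM in KO, 3.04, 3.56 and 3.28 CPM in WT, log2 change 1.26, adjusted p 3.12e-05) rose as well. The flanking genes, named after their values were seen, were Hoxd13, at 97.4, 97.1 and 83.8 CPM in KO and 69, 55.7 and 62.5 CPM in WT (0.58, adjusted p 0.19), and Hoxd9, at 6.28, 6.35 and 6.87 CPM in KO and 6.86, 6.15 and 6.17 CPM in WT (0.03, adjusted p 0.982). Of 10 tested imprinted genes, expressed from a single parental chromosome, 2 rose (20%). These were the growth factor adaptor Grb10 (3.94, 5.14 and 4.4 CPM in KO, 0.788, 0.955 and 1.11 CPM in WT, log2 change 2.19, SE 0.18, adjusted p 2e-06) and Peg10 (2.23, SE 0.331, adjusted p 0.000574). Within 20 Mb of Brca1, 19 of 534 genes were called (3.56%), beside 4.11% over all chromosomes.

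Interferon-induced genes tended lower, with calls that depended on the libraries used. Of 31 genes of the type I interferon response, 4 fell and none rose (12.9%), beside 1.58% of all genes called lower. Of the 31, 28 lay below 0 and the median was -0.36. Stat2, a subunit of the transcription factor that carries the interferon signal to the nucleus, stood at 48.8, 42.8 and 47.2 CPM in KO and at 70.2, 61.5 and 85.8 CPM in WT (log2 change -0.65, SE 0.136, adjusted p 0.00986). The antiviral GTPase Mx2 stood at 6.24, 4.14 and 4.24 CPM in KO and at 9.23, 7.76 and 12.6 CPM in WT (log2 change -1.02, SE 0.203, adjusted p 0.0067). KO was lower in every library for both, with the highest WT value in library 3. Mx1 (-0.9, adjusted p 0.018) and the nucleic acid sensor Zbp1 (-1.08, adjusted p 0.0467) fell too. Mx2 and Mx1 were not called without KO library 3 either, and Zbp1 was called without KO library 1 and in no other of the 6 fits with 1 library left out. Without KO library 2 or without WT library 3 none of the 31 was called, and the other fits with 1 library left out called up to 5 (3 without WT library 1). Without WT library 3 the log2 changes were -0.51 for Stat2 and -0.79 for Mx2. The chemokine Cxcl10, at 3.11, 2.76 and 3.78 CPM in KO and 5.74, 4.71 and 12.4 CPM in WT, was called lower (-1.26, adjusted p 0.0245) and stood at -0.69 (adjusted p 0.215) without WT library 3; it was not called without any of the KO libraries either. The granulocyte protein gene S100a9, under 2 CPM in all 6 libraries, was called at the limit (-1.25, adjusted p 0.0496) and in 1 of the 6 such fits, without KO library 3.

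The DNA sensors of the Ifi200 family, which interferon also induces, differed among themselves. Of 10 tested members, 2 rose and 1 fell (30%, beside 4.11% of all genes called). Ifi205 stood at 12.2, 10.2 and 11 CPM in KO and at 1.13, 0.489 and 1.04 CPM in WT, and Ifi211 at 28.7, 23.2 and 25 CPM in KO and 8.22, 5.96 and 5.09 CPM in WT (log2 changes 3.74 and 2.04, adjusted p 9.99e-05 and 0.00167). Ifi207 was lower (1.54, 1.45 and 1.58 CPM in KO, 5.29, 2.56 and 4.13 CPM in WT, log2 change -1.36, adjusted p 0.0247) and was called in 1 of the 6 fits with 1 library left out, without WT library 2. The members of this family resemble each other in sequence, so the division of reads among them is uncertain. Of 16 tested antigen presentation genes, 1 was called (6.25%, beside the same 4.11%). The class II gene H2-Ab1 rose (4.87, 5.78 and 5.9 CPM in KO, 2.48, 1.7 and 1.81 CPM in WT, log2 change 1.52, SE 0.249, adjusted p 0.00148).

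Cholesterol synthesis genes all lay on the lower side. Of 25 tested genes of the pathway, 4 fell and none rose (16%), beside 1.58% of all genes called lower. All 25 log2 changes were below 0 and the median was -0.34. Acat2, a cytosolic acetoacetyl-CoA thiolase at the head of the pathway, stood at 46.6, 48.5 and 51.6 CPM in KO and at 75.1, 82.4 and 85.5 CPM in WT (log2 change -0.73, SE 0.113, adjusted p 0.000854). It was lower in each KO library than in any WT library and called in all 6 fits with 1 library left out. Dhcr7, the last enzyme of the pathway (-1.05, adjusted p 0.0198), was called without WT library 1 and in no other of these fits (adjusted p up to 0.102), and Sqle, the squalene epoxidase (-0.42, adjusted p 0.0207), without KO library 2 or WT library 1 (otherwise up to 0.138). HET libraries stood near KO for Acat2, at 53.5, 55.1 and 46.7 CPM.

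The promoters of Acat2 and Stat2 are shown because each belongs to a list whose members lay mostly on 1 side and holds the motif of that pathway's transcription factor. Each run is the 250 bases before the gene start in RefSeq, GRCm38.p6, 5′ to 3′ on the gene's strand, with the motif in capitals. The Acat2 run (chr17:12960726-12960975, minus strand) holds CACCNCAC, letters shared with the classical sterol regulatory element, from position -181. The Stat2 run (chr10:128270248-128270497, plus strand) holds the core letters of the interferon-stimulated response element, GAAA and GAAA with any 2 bases between them, from position -222 and read on the opposite strand.
Acat2: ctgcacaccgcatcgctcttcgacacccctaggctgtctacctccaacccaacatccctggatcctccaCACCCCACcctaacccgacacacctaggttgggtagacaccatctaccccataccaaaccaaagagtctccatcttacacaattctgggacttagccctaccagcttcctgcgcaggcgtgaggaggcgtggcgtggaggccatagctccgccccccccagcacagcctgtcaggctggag
Stat2: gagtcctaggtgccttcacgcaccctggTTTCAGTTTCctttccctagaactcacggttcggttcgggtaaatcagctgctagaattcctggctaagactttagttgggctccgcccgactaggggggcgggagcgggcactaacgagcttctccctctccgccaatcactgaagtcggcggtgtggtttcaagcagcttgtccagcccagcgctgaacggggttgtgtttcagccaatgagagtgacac
On either strand, CACCNCAC occurs in 5.37% of the 32851 RefSeq promoters of this length and in 3 of the 17 cholesterol genes with a RefSeq entry (Acat2, Hmgcs1 and Hsd17b7). The spaced pair of GAAA, searched likewise on either strand, occurs in 2.98% of these promoters and in 9 of the 21 interferon response genes with an entry. A match of letters is a description of the sequence and does not show binding.

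Stress and antioxidant genes showed mixed changes. Of 28 antioxidant and glutathione genes, 2 rose and 3 fell (17.9%, beside 4.11% of all genes called), with a median of -0.02. Gstp1 and the secreted peroxidase Gpx3 (1.52, 2.17 and 1.84 CPM in KO, 0.675, 0.513 and 0.532 CPM in WT, log2 change 1.73, SE 0.243, adjusted p 0.000358) rose. Gsto1 (-0.5, adjusted p 0.0235) and Gsta4 (-0.43, adjusted p 0.0386) fell and were called without WT library 1 and in no other fit with 1 library left out. The third fall, Gsta2, has near-identical copies, and their sum did not pass the test (log2 change -1.09, SE 0.293, adjusted p 0.0502). Of 24 genes of the unfolded protein and integrated stress response, 1 was called (4.17%, close to the 4.11% of all genes). Herpud1, which helps to clear misfolded proteins, fell (-0.47, adjusted p 0.0344) and was likewise called without WT library 1 alone among these fits. None of 27 hypoxia and glycolysis genes was called (median -0.05), with Gapdh at -0.01 (adjusted p 0.991) and Pkm at -0.06 (adjusted p 0.958), both genes with near-identical copies. The 13 mitochondrially encoded genes had a median of 0.47 and none was called, with mt-Co1 at 23400, 21800 and 16500 CPM in KO and 18900, 12400 and 13900 CPM in WT (adjusted p 0.744). With the mitochondrial share of reads as a covariate, an alternative chosen after seeing the data, 1380 genes were called in place of 634, all 634 among them with the same direction. Of 15 tested retinoid genes, 2 were called (13.3%, beside 4.11% of all genes). The retinoic acid-degrading enzyme Cyp26b1 rose (0.5, SE 0.0947, adjusted p 0.00482). The retinol dehydrogenase Rdh11 fell (-0.33, adjusted p 0.0166) and was called in 2 of the 6 fits with 1 library left out, without KO library 3 or WT library 1.

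**Figure D4:**
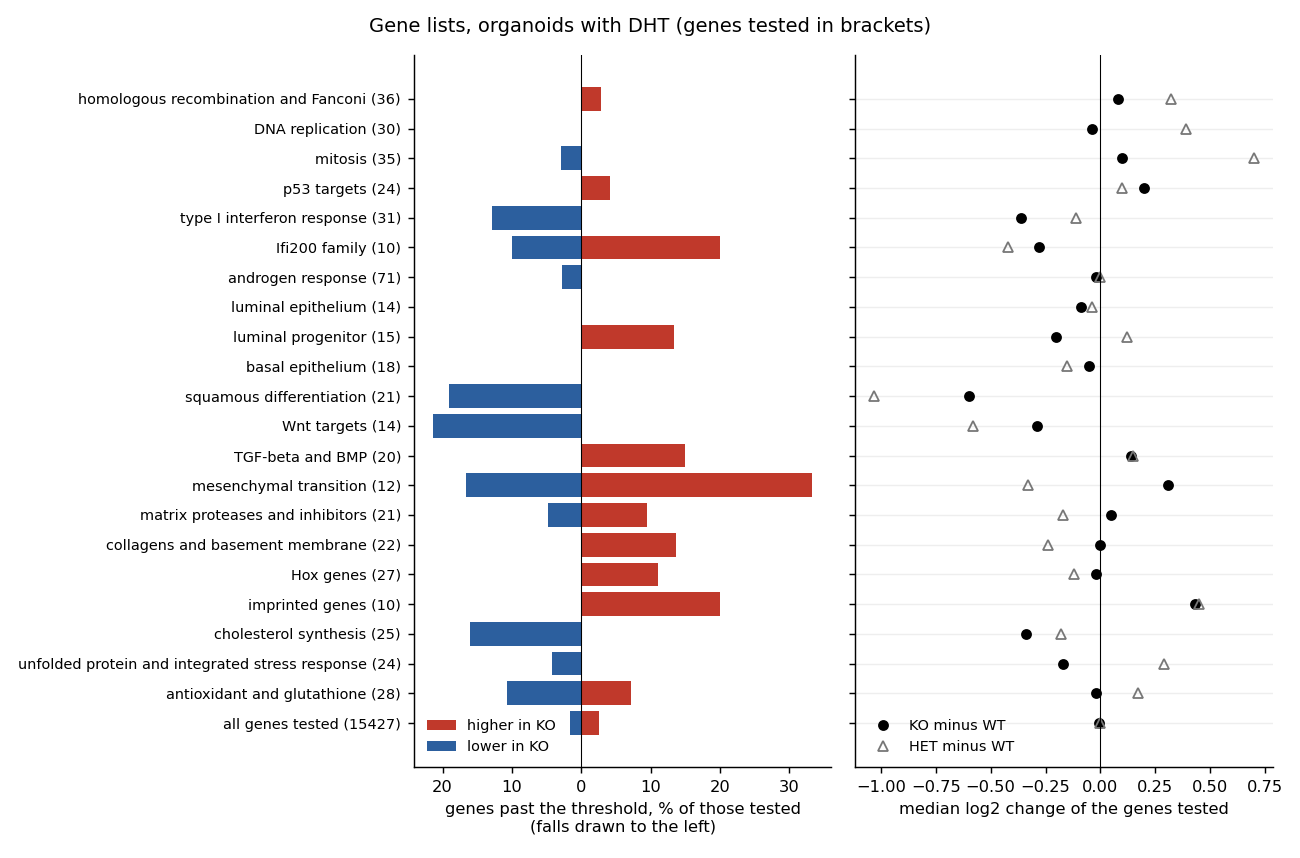
For each list, with its number of genes tested in brackets, the left panel gives the percentage of genes called higher (red) or lower (blue, drawn to the left) in KO against WT with DHT, and the right panel the median log2 change for KO minus WT (black circles) and HET minus WT (open triangles), which share the WT libraries. The mesenchymal, Wnt, squamous and cholesterol lists are among those above the 4.11% of all genes, and the HET medians for mitosis and replication lie to the right of the KO medians.

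The KO against WT difference was next set beside the same difference without DHT, which rests on 6 other libraries. Without DHT 741 genes were called (4.8%), 436 higher (2.83%) and 305 lower (1.98%) in KO. Of the 634 genes called with DHT, 430 were also called without it and in the same direction (271 higher, 159 lower), which is 67.8% of the first set and 58% of the second, and none was called in the opposite direction. In all, 626 of the 634 had the same sign in both media. Genes are not independent of each other, and as a description across all 15427 the changes in the 2 media had a Pearson r of 0.49 and a Spearman rho of 0.536. Among well-described genes, Spock1 stood at 69.5, 71.8 and 65.7 CPM in KO and 0.111, 0.445 and 0.282 CPM in WT without DHT, Fcgr3 at 0.248, 0.167 and 0.0988 CPM against 9.94, 7.56 and 9.17 CPM, and Fn1 at 176, 165 and 195 CPM against 43, 59.3 and 53.7 CPM. The direction and the separation of these genes were thus the same without androgen. The authors' labels do not say whether cultures with and without DHT were split from the same lines.

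The difference between the media was tested directly as an interaction. By edgeR, no gene passed (smallest adjusted p 0.201), 417 had an unadjusted p below 0.05 (2.7%), and DESeq2 called 5. A gene called in 1 medium and not in the other is therefore not shown to respond to DHT differently. Acpp, for example, had a log2 change of 0.61 with DHT and 0.08 without (adjusted p 0.829), Fas 0.74 and 0.11 (adjusted p 0.832) and Hey1 0.84 and 0.24 (adjusted p 0.576). Clu had 0.94 with DHT and 0.54 without it (adjusted p 0.0173), and stood without DHT at 836, 887 and 1060 CPM in KO and 713, 639 and 564 CPM in WT. Of the 35 mitosis genes, 6 were called higher in KO without DHT, where 2.83% of all genes were, with a median of 0.39, and none was called higher with DHT; the difference between media passed for no gene.

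**Figure D5:**
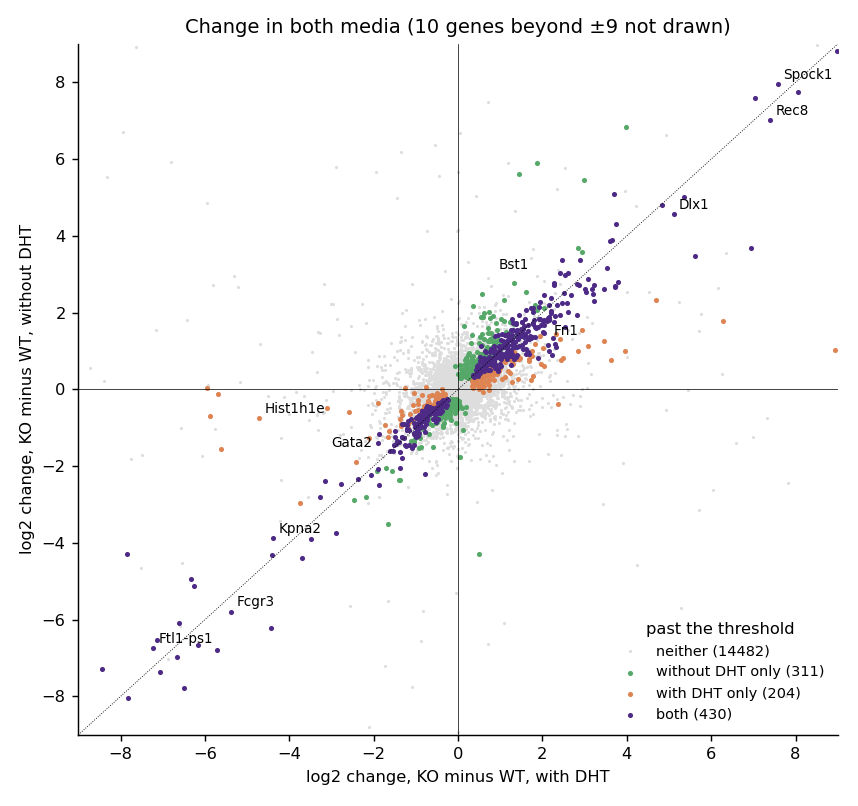
Log2 change, KO minus WT, with DHT (x axis) and without DHT (y axis) for each gene, with the 430 genes called in both media in purple, 204 called with DHT alone in orange and 311 called without DHT alone in green; the dotted line marks equal change and 10 genes beyond 9 on either axis are not drawn. The purple points follow the line from Ftl1-ps1 and Fcgr3 to Rec8 and Spock1, and Hist1h1e, which rests on WT library 1 with DHT, lies off it.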

How the data were processed

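RNA-seq was measured in 24 libraries, of which the 6 KO and WT organoid libraries with DHT are compared here. Per the submitters' processing notes, the authors quantified reads with Salmon 0.13.1. Those notes name the human build hg38, whereas the deposited tables list mouse Ensembl transcripts, so the tables were read as mouse. Per the file headers, each deposited table gives the authors' estimated count of reads per transcript, with TPM, length and effective length. Estimated counts were summed per gene with GENCODE mouse release M21 (GRCm38) and rounded. Transcripts without a gene there, 922 of 116945, held between 0.228% and 0.327% of the reads of the 6 libraries and were left out. The authors' TPM values were used for Brca1-201 only.

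The 18 organoid libraries, in 6 groups of 3, were fitted together with edgeR 4.0.16 in R 4.3.3 (filterByExpr, TMM, quasi-likelihood F-test, 12 residual degrees of freedom, Benjamini-Hochberg over 15427 genes, threshold 0.05). The fit was also run on simulated counts drawn gene by gene with known changes. Such draws hold no outlying library like WT library 1 and no reads divided among copies, so they do not test for these. SE is the log2 change divided by the square root of F. Alternatives used DESeq2 1.42.0, other filters and scalings, transcript length offsets and each library left out. Near-identical copies were found with blastn 2.17.0 on the transcript with the most reads per gene, at 95% identity over 80% of the shorter transcript.

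Genes named are Brca1, the steroid receptors, the 12 largest rises and 12 largest falls (called, at least 5 CPM on average in a group, no overlap, no clone names), and from each of the lists described at most 4 called members, taken by p, or, in a list with no call, the 2 most abundant. Some genes that the rule names are not reported here. The comparison, the genes and the 44 lists were chosen with earlier results of these data known. WT library 1 gives less precise values than the others, with 11965815 reads. Same-numbered KO and WT libraries deviated from their group means with correlations of 0.207, 0.054 and 0.0974. The numbers were not taken as pairs in the main fit, and the labels do not say whether they mark a shared batch or culture.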

Additional observations from a re-analysis of the deposited data

How the results depend on the processing

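With DHT, 634 genes were called between KO and WT. DESeq2 called 968, and the mitochondrial share of reads as a covariate, chosen after seeing the data, gave 1380. Leaving out 1 library gave 394 to 562. Without DHT the count was 741, with 1152 by DESeq2, 1653 with the mitochondrial covariate, 201 with only the libraries compared, and 412 to 733 with 1 library left out. For HET against WT with DHT, 1158 genes were called, with 2727 under the mitochondrial covariate and 709 to 841 with 1 library left out. For KO against HET, 546 were called, with 978 by DESeq2, 1583 with the mitochondrial covariate, 1238 with only the libraries compared and 246 to 353 with 1 library left out. The difference between media gave 0 genes, 5 by DESeq2 and 3 with the mitochondrial covariate. The cause of these shifts was not tested, beyond the fewer libraries of some fits. With near-identical copies summed, chosen after seeing the data, the log2 change of Gstp-ps became 1.19, that of Kpna2 0.09 and that of Ftl1 -0.07, and with 1 library left out that of Ccnb1ip1 ran from -6.53 to 0.83, the latter without WT library 1. Among lists, DESeq2 called 8 squamous, 6 cholesterol and 6 androgen response genes lower. Of the 126 genes assessed one by one, 93 were called, but many were chosen because they were called, so this share follows from the choice. Of the 93, 59 kept their call in all 6 fits with 1 library left out.

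With the replicate number as a block, 704 genes were called with DHT, 606 of them among the 634. The block gave 841 without DHT, 1333 for HET against WT, 655 for KO against HET and 0 for the difference between media. Same-numbered KO and WT libraries with DHT had correlations of 0.207, 0.054 and 0.0974, and differently numbered ones ran from -0.242 to 0.189. These values do not settle whether a shared number marks a shared batch or culture. Depth limits WT library 1 most, and genes under 1 CPM rest on few reads there.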
